A study of Homo sapiens with 12 samples.

Results

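Mitosis and spindle checkpoint genes were measured in the human pancreatic cancer line MIA PaCa-2 after it received gemcitabine at high or at low glutamine. The set was drawn up by gene symbol and role, with earlier results of these data known, and no measured value enters its rule. It holds 58 genes of 9 roles, from the G2/M cyclins and their kinases over the spindle checkpoint, kinetochore and spindle to cytokinesis, the anaphase-promoting complex and condensin. Of these, 57 were among the 15090 symbols of the expression table, and all 57 were among the 12789 genes that passed the filter on low values. SKA1, which encodes a kinetochore protein, was not analysed here.

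RNA was sequenced in 12 libraries, 3 for each of 4 groups. The groups were 40 mM L-glutamine with 0.5 µM gemcitabine, 40 mM L-glutamine without drug, 2 mM L-glutamine with 0.5 µM gemcitabine, and 2 mM L-glutamine without drug, each for 48 h. Cells of every group carried the label wild type and sat in glutamine-free RPMI 1640 to which L-glutamine had been added back, so no group was without glutamine. The 3 libraries of a group are labelled biological triplicates of this 1 line, and the p-values measure the spread between them.

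Gemcitabine is a deoxycytidine analogue that is built into DNA and stops its synthesis. Genes for mitosis are transcribed late in the cell cycle: the DREAM complex keeps their promoters silent in G1, and MuvB proteins with MYBL2 and FOXM1 switch them on in G2. Their products build the spindle and its attachments to the chromosomes, and the spindle checkpoint holds back the anaphase-promoting complex until the chromosomes are attached.

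Levels are given in RPM (reads per 1000000 reads, divided by the authors' library scaling factor). A fold change is a difference of log2(RPM + 1) values with its standard error (SE). A gene is said to rise or fall where the Benjamini-Hochberg adjusted p of a two-sided limma test over all 12789 genes was under 0.05. The libraries held 21723094 to 32811746 reads in listed genes, and the median over the 57 genes was 2553 reads, at which counting noise amounts to 1.98% of the value. The least read was SPC25, with 60 reads in its lowest library. Of 6 markers of a pancreatic carcinoma line, 5 were measured, among them KRT8 at 1355 to 2357 RPM and KRT18 at 795 to 1603 RPM. Of 3 leukocyte, 3 fibroblast and 3 endothelial markers, 1, 2 and 1 were among the symbols analysed, and some moved with the drug. CD68, listed for leukocytes, lay at 43.1 ± 0.344 RPM with gemcitabine and 20.9 ± 1.53 RPM without it at 40 mM, and at 43.2 ± 0.729 RPM with gemcitabine and 19.8 ± 0.575 RPM without it at 2 mM (SD, n = 3 each). COL1A2, listed for fibroblasts, went the other way, at 678 ± 25.6 and 885 ± 15.4 RPM with and without gemcitabine at 40 mM and 606 ± 23.8 and 757 ± 11.1 RPM with and without it at 2 mM, while COL1A1, also of fibroblasts, stayed between 0.423 and 1.61 RPM and CDH5, of endothelial cells, between 0.042 and 0.66 RPM. Their part in the drug comparisons was not tested. Of 4 acinar enzyme genes, none was among the symbols analysed. In bulk RNA, more cells in G2 and mitosis and more of these transcripts per cell cannot be told apart. In a human annotation 15 of the genes have pseudogenes named after them, with 6 for CKS1B and 4 for UBE2C, and the reads of these genes are uncertain because counting could have split or merged them.

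Gemcitabine raised nearly the whole set. At 40 mM glutamine 55 of the 57 genes rose with the drug and 1, CDC25B, fell, where 14.1% of all tested genes rose and 16.2% fell. At 2 mM 45 rose and 1, again CDC25B, fell, where 17.5% of all tested genes rose and 17.1% fell. The changes were small: over the 57 genes the median log2 fold change was 0.34 at 40 mM and 0.25 at 2 mM, against −0.0054 and −0.0011 over all genes tested, and in no comparison did a member reach 2-fold. All 3 treated libraries lay above all 3 untreated ones for 55 of the 57 genes at 40 mM, against 19.2% of all tested genes, and for 47 of the 57 at 2 mM, against 23.2%.

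The summed level of the 57 genes was 10656 ± 68.6 RPM with gemcitabine and 8651 ± 140 RPM without it at 40 mM, and 10333 ± 123 RPM with gemcitabine and 8937 ± 171 RPM without it at 2 mM (SD, n = 3 each). At neither glutamine level did a treated library overlap an untreated one. The treated libraries spanned 10581 to 10716 RPM at 40 mM and 10194 to 10429 RPM at 2 mM, and the untreated ones 8490 to 8742 RPM at 40 mM and 8795 to 9127 RPM at 2 mM. The highest group mean of a gene was in treated cells at 40 mM for 42 genes and in treated cells at 2 mM for 13, leaving CDC25B, highest in untreated cells at 40 mM, and CKS2, highest in untreated cells at 2 mM. As read from the values, the authors' scaling divided the RPM of the 3 treated libraries at 40 mM by 1.03 before deposit, which lowered them. It divided the RPM of the other libraries by 0.979 to 1.002. With all libraries set to equal totals, 55 of the 57 genes rose at 40 mM, while the rises among all calls there were then 62.9%, against 46.6% in the deposited scaling. Of all 12789 tested genes, 2460 rose at 40 mM with equal totals, against 1809 in the deposited scaling.

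**Figure D1:**
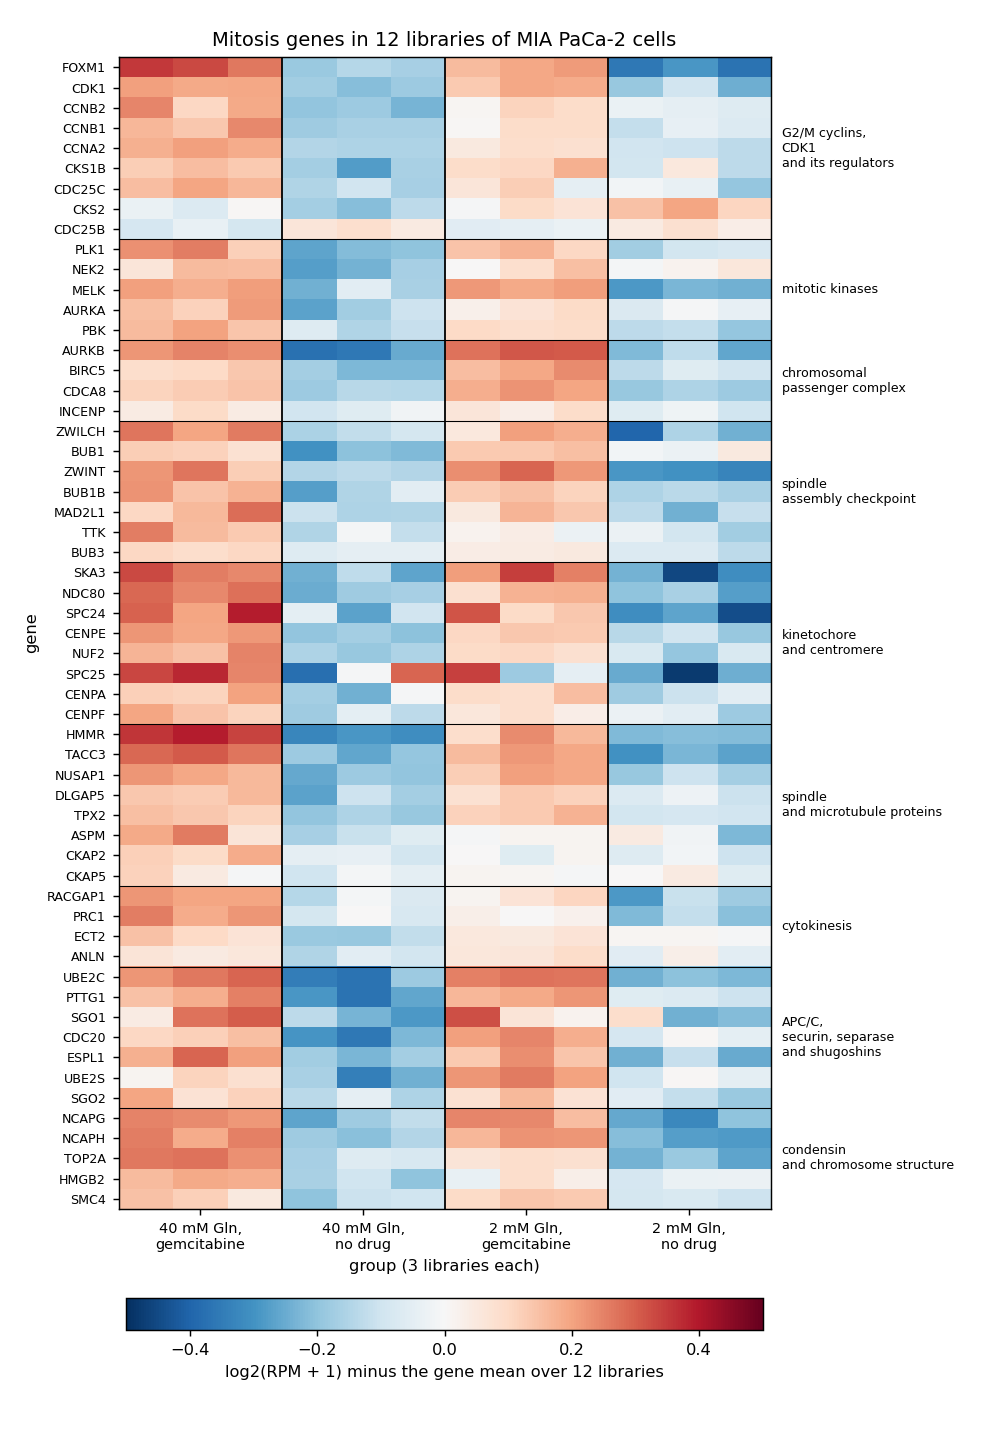
Each cell of the map is the log2(RPM + 1) of 1 gene in 1 library minus that gene's mean over the 12 libraries, with genes down the page by role and the 4 groups of 3 libraries across it. The treated groups are red and the untreated ones blue for most genes, CDC25B runs the other way, and CKS2 is highest in untreated cells at 2 mM.

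Promoter sequence is shown because these genes moved together and because such genes share 2 short promoter words: the CHR (cell cycle genes homology region), read by the LIN54 subunit of the DREAM and MuvB complexes, and the CCAAT box, bound by NF-Y. RefSeq sequence on GRCh38.p14 from 250 bases before to 50 after each start was searched on both strands for the CHR as TTTGAA or TTCGAA, the CCAAT box as CCAAT, an E2F core as GCGGGAA or GCGCGAA and the TATA word TATAAA. Sequence was matched for 47 of the 57 genes, and the others were FOXM1, AURKA, PBK, BIRC5, BUB3, TTK, TPX2, RACGAP1, UBE2C and HMGB2. A CHR stood in 31 of the 47 promoters (66.0%), against 10.8% of the 9858 promoters matched among all tested genes. CCAAT stood in 34 of the 47 (72.3%), against 36.5%, and both words stood in 24 (51.1%), against 4.69%. The E2F core stood in 10 (21.3%), against 14.2%, and TATAAA in 4 (8.51%), against 5.01%. Of 24 S phase genes followed for comparison, such as the MCM helicase genes, 21 had sequence, of which 2 held a CHR (9.52%), 16 CCAAT (76.2%) and 14 the E2F core (66.7%). A match is a run of letters and not a shown binding site.

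The 150 bases before the start are printed 5′ to 3′ on the gene's strand for the 3 genes with the highest difference between the drug responses at 40 and 2 mM (NEK2, HMMR, CCNB2), for the 3 with the lowest (ZWINT, SKA3, MELK), and for CDC25B, the gene that fell. Capitals mark the CHR and CCAAT words that lie whole in the window, on either strand, so the reverse strand reads TTCAAA and ATTGG, and words that touch or overlap run into one another. The windows are chr1:211675622-211675771 (minus strand) for NEK2, chr5:163460482-163460631 (plus strand) for HMMR, chr15:59104996-59105145 (plus strand) for CCNB2, chr10:56361260-56361409 (minus strand) for ZWINT, chr13:21176553-21176702 (minus strand) for SKA3, chr9:36572745-36572894 (plus strand) for MELK and chr20:3786801-3786950 (plus strand) for CDC25B.
NEK2: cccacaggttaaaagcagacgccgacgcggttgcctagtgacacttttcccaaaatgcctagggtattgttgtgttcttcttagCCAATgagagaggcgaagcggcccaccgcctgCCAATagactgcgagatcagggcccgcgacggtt
HMMR: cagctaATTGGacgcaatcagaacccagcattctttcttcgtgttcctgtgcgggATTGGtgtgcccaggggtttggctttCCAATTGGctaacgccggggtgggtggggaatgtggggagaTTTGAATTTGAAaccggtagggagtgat
CCNB2: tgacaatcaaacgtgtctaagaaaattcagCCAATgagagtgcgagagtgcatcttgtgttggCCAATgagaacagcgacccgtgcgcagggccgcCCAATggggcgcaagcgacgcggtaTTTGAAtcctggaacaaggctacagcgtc
ZWINT: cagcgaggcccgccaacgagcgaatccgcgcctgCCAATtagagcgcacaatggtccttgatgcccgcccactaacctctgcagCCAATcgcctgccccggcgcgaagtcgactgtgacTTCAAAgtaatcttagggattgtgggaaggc
SKA3: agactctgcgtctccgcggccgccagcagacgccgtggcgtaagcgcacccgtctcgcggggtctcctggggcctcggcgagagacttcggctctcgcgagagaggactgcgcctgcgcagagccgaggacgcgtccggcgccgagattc
MELK: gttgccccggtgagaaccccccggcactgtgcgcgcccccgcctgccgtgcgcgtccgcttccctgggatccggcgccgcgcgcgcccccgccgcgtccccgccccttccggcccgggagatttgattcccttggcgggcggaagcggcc
CDC25B: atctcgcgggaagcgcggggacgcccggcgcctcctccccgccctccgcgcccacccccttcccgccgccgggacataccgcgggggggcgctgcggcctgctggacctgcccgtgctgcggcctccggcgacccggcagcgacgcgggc
The windows of HMMR, CCNB2 and ZWINT hold both words, that of NEK2 holds CCAAT without a CHR, and those of SKA3, MELK and CDC25B hold neither. SKA3 has 1 CHR in the 300 bases searched, which runs across the start, and MELK, which rose, has neither word there, like CDC25B. Among the 8 matched genes whose drug response differed between glutamine levels, 8 held CCAAT and 5 a CHR, against 26 and 26 of the 39 other matched members.

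**Figure D2:**
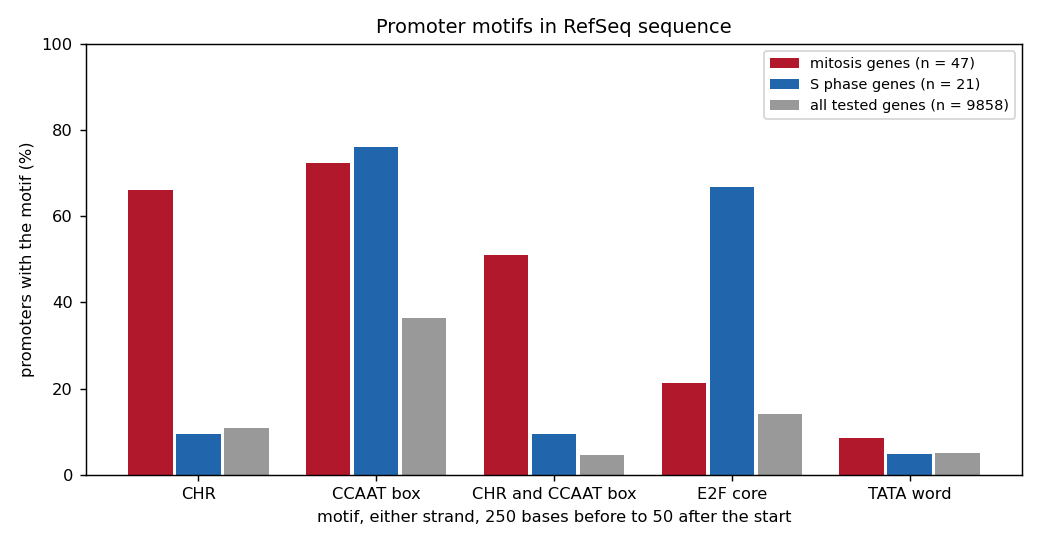
Bars give the percentage of RefSeq promoters (y axis, 0 to 100%) that hold each word on either strand, for the matched mitosis genes (n = 47), the S phase genes (n = 21) and all tested genes (n = 9858). The CHR bar is 66.0% for mitosis genes and 9.52% for S phase genes, and the E2F core bar is 21.3% for mitosis genes and 66.7% for S phase genes.

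The cyclins, CDK1 and their regulators drive entry into mitosis. At 40 mM 8 of these 9 genes rose and CDC25B fell, and at 2 mM 6 rose, CDC25B fell, and CDC25C and CKS2 did not pass the test. FOXM1, the transcription factor of the G2 genes, stood at 287, 282 and 269 RPM with gemcitabine and 197, 203 and 199 RPM without it at 40 mM. At 2 mM FOXM1 stood at 249.8, 256 and 259.9 RPM with gemcitabine and 175, 183 and 173 RPM without it. Treated libraries were above untreated ones at both levels, with log2 fold changes of 0.48 (SE 0.033, adjusted p = 1.07e-13) at 40 mM and 0.53 (SE 0.033, adjusted p = 8.83e-15) at 2 mM. CDK1, the kinase that cyclin B activates, stood at 120.2, 119 and 119 RPM with gemcitabine and 92.3, 89.9 and 91.7 RPM without it at 40 mM. At 2 mM CDK1 stood at 114, 119.5 and 119 RPM with gemcitabine and 91.3, 97.6 and 87.8 RPM without it. Its groups did not overlap either, and its log2 fold changes were 0.38 and 0.35. CCNA2, the cyclin of S phase and G2, rose by 0.34 (SE 0.037, adjusted p = 5.19e-09) at 40 mM and by 0.18 (SE 0.037, adjusted p = 0.000196) at 2 mM on the log2 scale. CKS1B, a subunit of CDK complexes like CKS2, rose by 0.34 at 40 mM and 0.18 at 2 mM.

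CDC25B encodes a phosphatase that activates CDK1 at the centrosome, and it was the one gene of the set that fell with the drug. It stood at 331, 342 and 330.0 RPM with gemcitabine and 366, 372 and 362 RPM without it at 40 mM. At 2 mM CDC25B stood at 338, 340.3 and 343 RPM with gemcitabine and 362, 371 and 359 RPM without it. All treated libraries were below all untreated ones at each level, with log2 fold changes of -0.13 (SE 0.028, adjusted p = 0.000371) at 40 mM and -0.10 (SE 0.028, adjusted p = 0.00772) at 2 mM. The call at 40 mM was lost under quantile normalization, at -0.07 (limma adjusted p = 0.0539). CDC25C, the phosphatase of the same family that acts at mitotic entry, rose at 40 mM by 0.31 (SE 0.063, adjusted p = 0.000232) on the log2 scale and was at 0.13 (adjusted p = 0.115) at 2 mM.

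Of the 5 mitotic kinases outside the cyclin and checkpoint groups, 5 rose at 40 mM and 4 at 2 mM. PLK1, which acts from mitotic entry to cytokinesis, stood at 176, 179.5 and 163 RPM with gemcitabine and 125, 129 and 131 RPM without it at 40 mM. At 2 mM PLK1 stood at 166, 169.7 and 162 RPM with gemcitabine and 133, 141 and 142 RPM without it. Each treated library was above each untreated one of the same glutamine level, and the log2 fold change was 0.43 (SE 0.038, adjusted p = 5.76e-11) at 40 mM and 0.26 (SE 0.038, adjusted p = 2.02e-06) at 2 mM. MELK, a kinase of proliferating cells, rose by 0.35 at 40 mM and 0.46 at 2 mM on the log2 scale, and PBK, another kinase active in mitosis, by 0.28 and 0.24. AURKA, the spindle pole kinase, rose by 0.34 at 40 mM, while at 2 mM its call at 0.10 (adjusted p = 0.0384) was lost when untreated replicate 1 or 3 or treated replicate 2 or 3 was left out (adjusted p = 0.137, 0.0746, 0.0979 and 0.149) and under quantile normalization (0.0654). NEK2, a kinase that parts the centrosomes, did not pass the test at 2 mM.

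The chromosomal passenger complex corrects wrong attachments of the spindle, and its 4 genes rose at both glutamine levels. AURKB, its kinase, stood at 129.5, 132 and 131 RPM with gemcitabine and 85.7, 86.5 and 93.2 RPM without it at 40 mM. At 2 mM AURKB stood at 134, 138 and 138 RPM with gemcitabine and 95.2, 102 and 92.7 RPM without it. The treated and untreated libraries lay far apart at each level, with log2 fold changes of 0.56 (SE 0.04, adjusted p = 4.17e-13) at 40 mM and 0.50 (SE 0.04, adjusted p = 6.22e-12) at 2 mM. BIRC5 (survivin) rose by 0.31 and 0.29, CDCA8 (borealin) by 0.28 and 0.38, and the scaffold INCENP by 0.12 and 0.12 on the log2 scale at 40 and 2 mM. The INCENP call at 40 mM was lost without untreated replicate 1 (adjusted p = 0.0587) or without treated replicate 2 (0.0682).

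Spindle checkpoint genes, whose products hold back anaphase, rose 7 of 7 at 40 mM and 6 of 7 at 2 mM. ZWINT, a kinetochore protein that helps to recruit the checkpoint complex, stood at 67.8, 70.02 and 63.2 RPM with gemcitabine and 52.3, 52.96 and 52.3 RPM without it at 40 mM. At 2 mM ZWINT stood at 68.3, 71.2 and 67.6 RPM with gemcitabine and 47.2, 46.8 and 46.0 RPM without it. No treated library overlapped an untreated one, and the log2 fold changes were 0.34 (SE 0.047, adjusted p = 4.89e-07) at 40 mM and 0.55 (SE 0.047, adjusted p = 2.05e-11) at 2 mM. MAD2L1, which encodes MAD2, rose by 0.32 and 0.28, and BUB1B, which encodes BUBR1, by 0.34 and 0.28. ZWILCH, of the complex that ZWINT helps to recruit, rose by 0.37 and 0.41. BUB3 is present outside mitosis too, and rose by 0.15 (SE 0.031, adjusted p = 0.00022) at 40 mM and by 0.13 (SE 0.031, adjusted p = 0.000962) at 2 mM. The checkpoint kinase TTK (MPS1) stood at 68.8, 64.1 and 62.9 RPM with gemcitabine and 51.6, 56.9 and 52.8 RPM without it at 40 mM. At 2 mM TTK stood at 58.1, 59.0 and 56.2 RPM with gemcitabine and 56.2, 53.7 and 50.7 RPM without it. Its groups overlapped at 2 mM only, where the log2 fold change was 0.11 (adjusted p = 0.0989), against 0.28 (adjusted p = 6.62e-05) at 40 mM.

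Of the 8 kinetochore and centromere genes measured, 7 rose at each glutamine level. SKA3, a protein of the SKA complex that couples kinetochores to microtubules, stood at 38.4, 36.4 and 36.0 RPM with gemcitabine and 25.5, 27.7 and 25.1 RPM without it at 40 mM. At 2 mM SKA3 stood at 35.2, 38.8 and 36.3 RPM with gemcitabine and 25.6, 21.9 and 24.2 RPM without it. Treated libraries were all above untreated ones, and its log2 fold change of 0.60 (SE 0.066, adjusted p = 5.69e-09) was the highest of the set at 2 mM, beside 0.49 (SE 0.066, adjusted p = 4.38e-07) at 40 mM. NDC80 and NUF2 encode 2 subunits of the NDC80 complex, the main microtubule attachment, and rose by 0.47 and 0.35 at 40 mM and by 0.36 and 0.21 at 2 mM. SPC24, a further subunit of that complex, rose by 0.43 and 0.52. The large kinetochore protein CENPF rose by 0.27 and 0.15, the kinetochore motor CENPE by 0.40 and 0.26, and CENPA, the centromere histone, by 0.28 and 0.22.

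SPC25, the last NDC80 subunit of the set and its least abundant gene in reads, was the one member that passed the drug test at neither level. It stood at 5.47, 5.67 and 5.09 RPM with gemcitabine and 2.96, 4.11 and 5.28 RPM without it at 40 mM. At 2 mM SPC25 stood at 5.51, 3.53 and 3.98 RPM with gemcitabine and 3.31, 2.69 and 3.33 RPM without it. Untreated replicate 3 at 40 mM lay within the treated range, while at 2 mM the groups did not overlap. The log2 fold changes were 0.35 (SE 0.15, adjusted p = 0.0783) and 0.36 (SE 0.15, adjusted p = 0.0601). Without untreated replicate 3 at 40 mM the change there was 0.51 (adjusted p = 0.0173), and without treated replicate 2 at 2 mM it was 0.47 there (adjusted p = 0.033).

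Among the 8 spindle and microtubule genes, 8 rose at 40 mM and 5 at 2 mM. TPX2, which activates AURKA on spindle microtubules, stood at 445, 440.2 and 434 RPM with gemcitabine and 350.0, 360.5 and 351 RPM without it at 40 mM. At 2 mM TPX2 stood at 434, 439 and 452 RPM with gemcitabine and 376, 379 and 375 RPM without it. Its treated libraries lay above the untreated ones, with log2 fold changes of 0.31 (SE 0.028, adjusted p = 7.57e-11) at 40 mM and 0.23 (SE 0.028, adjusted p = 5.5e-08) at 2 mM. TACC3, a microtubule-binding partner of CKAP5, rose by 0.50 and 0.46, NUSAP1, which bundles spindle microtubules, by 0.40 and 0.33, and DLGAP5 (HURP), which stabilises spindle fibres, by 0.32 and 0.17. CKAP5 (chTOG), a microtubule polymerase that cells also need outside mitosis, stood at 583, 555 and 536 RPM with gemcitabine and 503, 534 and 521 RPM without it at 40 mM. At 2 mM CKAP5 stood at 543, 541 and 536 RPM with gemcitabine and 539, 556 and 516 RPM without it. The values differed little, with 0.10 (adjusted p = 0.0117) at 40 mM, which was lost without untreated replicate 1 (adjusted p = 0.0744) or treated replicate 1 (0.123), and 0.01 (adjusted p = 0.848) at 2 mM. ASPM, a spindle pole protein, stood at 190.3, 193 and 193 RPM with gemcitabine and 198, 189 and 164 RPM without it at 2 mM, where the groups overlapped and the log2 fold change was 0.07 (adjusted p = 0.248), while at 40 mM it rose by 0.28. Without untreated replicate 3 the ASPM estimate at 2 mM was -0.01 and without untreated replicate 1 it was 0.13 (adjusted p = 0.0458). CKAP2, a microtubule protein of the spindle poles, rose at 40 mM by 0.19 and was at 0.05 (adjusted p = 0.327) at 2 mM.

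All 4 cytokinesis genes rose at 40 mM and 3 of them at 2 mM. PRC1, which bundles the microtubules of the spindle midzone, stood at 121, 115 and 118 RPM with gemcitabine and 94.8, 101 and 95.5 RPM without it at 40 mM. At 2 mM PRC1 stood at 103, 101 and 102 RPM with gemcitabine and 86.5, 92.8 and 87.0 RPM without it. Treated libraries were above untreated ones at each level, with log2 fold changes of 0.28 and 0.20. RACGAP1, a partner of ECT2 at the midzone, rose by 0.28 and 0.26, and ANLN (anillin), a scaffold of the contractile ring, by 0.15 and 0.10. The ANLN call at 2 mM was lost without untreated replicate 1 or 3 or treated replicate 3 (adjusted p = 0.0626, 0.0567 and 0.0581). ECT2, the exchange factor that starts the ring, did not pass the test at 2 mM.

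The genes of anaphase rose 7 of 7 at 40 mM and 6 of 7 at 2 mM. UBE2C, the ubiquitin-conjugating enzyme that starts chains for the anaphase-promoting complex, stood at 176, 182 and 185 RPM with gemcitabine and 119, 117 and 133 RPM without it at 40 mM. At 2 mM UBE2C stood at 180.3, 183 and 182 RPM with gemcitabine and 128, 131 and 129.5 RPM without it. Its groups were well apart, with log2 fold changes of 0.56 (SE 0.039, adjusted p = 2.06e-13) at 40 mM and 0.49 (SE 0.039, adjusted p = 5.05e-12) at 2 mM. CDC20, the activator that the checkpoint holds back, stood at 338, 342 and 349 RPM with gemcitabine and 256, 245 and 269 RPM without it at 40 mM. At 2 mM CDC20 stood at 362, 373 and 356 RPM with gemcitabine and 296, 315 and 304 RPM without it. It rose by 0.42 at 40 mM and by 0.25 at 2 mM, with no overlap at either level. UBE2S, which lengthens the chains, rose by 0.32 and 0.28, and ESPL1 (separase), which cuts cohesin, by 0.41 and 0.37. The shugoshins protect centromeric cohesin: SGO2 rose by 0.24 and 0.22, while SGO1, at 6.38 to 10.2 RPM over all libraries, rose by 0.42 (SE 0.12, adjusted p = 0.00523) at 40 mM and was at 0.26 (SE 0.12, adjusted p = 0.0845) at 2 mM, where leaving out untreated replicate 1 gave 0.36 (adjusted p = 0.0286).

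Condensin and chromosome structure genes rose 5 of 5 at 40 mM and 4 of 5 at 2 mM. TOP2A, the topoisomerase that untangles sister chromatids, stood at 969, 973 and 945 RPM with gemcitabine and 719.7, 772 and 764 RPM without it at 40 mM. At 2 mM TOP2A stood at 844, 859 and 854 RPM with gemcitabine and 685, 709 and 673 RPM without it. Treated libraries exceeded untreated ones by a wide margin at both levels, and the log2 fold changes were 0.36 (SE 0.029, adjusted p = 5.71e-12) and 0.31 (SE 0.029, adjusted p = 1.89e-10). The condensin subunits NCAPG, NCAPH and SMC4 rose by 0.42, 0.41 and 0.24 at 40 mM and by 0.47, 0.46 and 0.21 at 2 mM. The chromatin protein HMGB2 rose at 40 mM and did not pass the test at 2 mM.

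**Figure D3:**
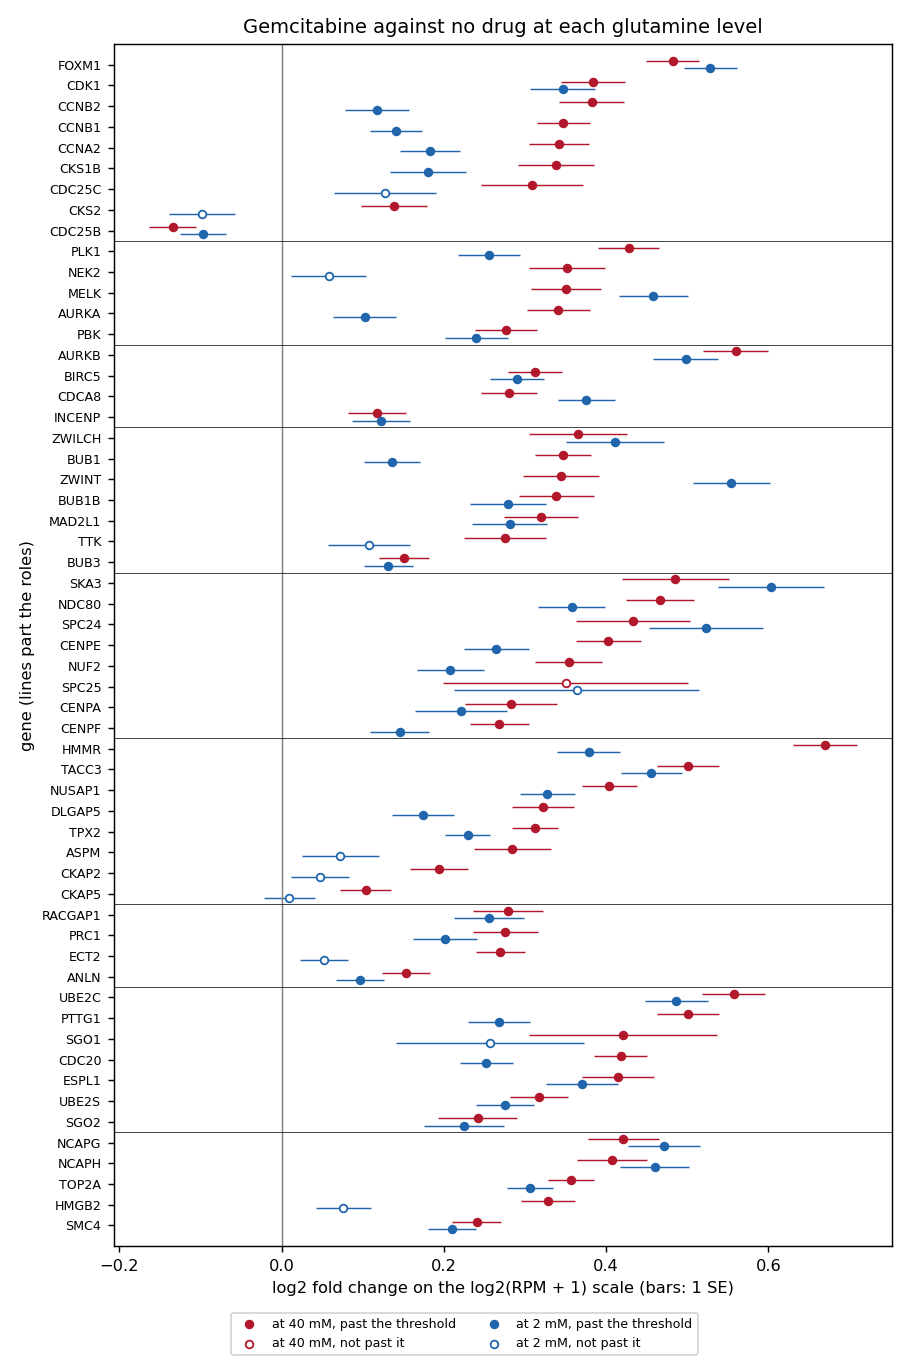
Points give the log2 fold change of gemcitabine against no drug at 40 mM (red) and at 2 mM glutamine (blue) for each of the 57 genes, by role, with bars of 1 SE, and filled points passed the limma threshold of 0.05. The 55 filled red points right of 0 reach up to 0.67 (HMMR), CDC25B lies left of 0 at both levels, and 11 blue points are open.

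Glutamine without the drug lowered 17 of the 57 genes (29.8%) at 40 mM against 2 mM, where 9.12% of all tested genes fell. The 5 that rose (8.77%) were near the 8.41% of all tested genes that rose, and the median log2 fold change was −0.04, against 0.0016 over all genes tested. The genes CKS2, NEK2, CDC20, BUB1, PTTG1, UBE2S, ECT2 and CCNB2 fell and kept their call under all alternatives that were run, at -0.32, -0.25, -0.25, -0.24, -0.23, -0.20, -0.17 and -0.16 on the log2 scale. CDC20 stood at 256, 245 and 269 RPM in untreated cells at 40 mM, against 296, 315 and 304 RPM at 2 mM, with no overlap. UBE2S stood at 325, 287 and 309 RPM at 40 mM, against 339.5, 366 and 352 RPM at 2 mM, again with no overlap. FOXM1, ZWINT and TOP2A rose with glutamine under all alternatives, by 0.17 (SE 0.033, adjusted p = 0.000208), 0.17 (SE 0.047, adjusted p = 0.0114) and 0.13 (SE 0.029, adjusted p = 0.00185). Of all calls in this comparison 48% were rises, and 61.2% with equal library totals.

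The other 11 calls of glutamine alone were weaker. AURKA, AURKB, BIRC5, CCNB1, CKS1B, DLGAP5, HMGB2, PLK1 and TPX2 fell, with log2 fold changes of -0.15 (CKS1B) to -0.09 (TPX2), and all 9 lost the call without untreated replicate 2 at 2 mM (adjusted p = 0.0509 to 0.223). Leaving out untreated replicate 1 at 40 mM ended 7 of these calls, all but BIRC5 and CKS1B, and that of SPC24 (0.0639 to 0.227). Without replicate 2 of that group AURKB, BIRC5, CCNB1, CKS1B, PLK1 and PRC1 were not called (0.0524 to 0.142), and without its replicate 3 BIRC5, CCNB1, DLGAP5, HMGB2, SPC24 and TPX2 were not (0.0665 to 0.16). The 2 remaining rises, SPC24 at 0.20 and PRC1 at 0.13, were lost without untreated replicate 1 or 3 at 2 mM (adjusted p = 0.0614 and 0.187 for SPC24, 0.0976 and 0.0821 for PRC1). Leaving out replicate 1 of that group also ended the calls of DLGAP5 and TPX2 (0.0511 to 0.0694), and leaving out replicate 3 those of CCNB1, HMGB2 and PLK1 (0.0927 to 0.127). CCNB1 and SPC24 lost their calls under quantile normalization and voom weights too, and when some single treated libraries, which enter only the shared estimate of spread, were left out. Quantile normalization also ended the calls of HMGB2 and PLK1. Equal library totals ended those of AURKB, CCNB1, CKS1B, DLGAP5, HMGB2, PLK1 and TPX2 (limma adjusted p = 0.0571 to 0.126). With the compared groups alone the same 7 were lost, and PRC1 and SPC24 (0.0529 to 0.0776).

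In gemcitabine-treated cells 13 of the 57 genes rose and 1 fell at 40 mM against 2 mM glutamine, where 8.62% of all tested genes rose and 13% fell. The median log2 fold change over the set was 0.05, against −0.0015 over all genes tested. PRC1, HMMR, TOP2A, HMGB2, CKAP2 and FOXM1 kept their rise under all alternatives, at 0.20, 0.20, 0.18, 0.15, 0.15 and 0.13. PRC1 stood at 121, 115 and 118 RPM at 40 mM, against 103, 101 and 102 RPM at 2 mM, and TOP2A at 969, 973 and 945 RPM, against 844, 859 and 854 RPM, with no overlap for either. The calls of TTK, ASPM, RACGAP1, NDC80, CCNA2, CCNB1 and CCNB2, at 0.17 to 0.11, were each lost when 1 library was left out: treated replicate 1 at 2 mM ended 5 of them (adjusted p = 0.0865 to 0.251), and treated replicate 1 at 40 mM ended 4 (0.0598 to 0.257). Treated replicate 2 at 40 mM decided ASPM and CCNA2 (0.107 and 0.0715), its replicate 3 CCNB1, CCNB2 and NDC80 (0.0732 to 0.112), and treated replicate 3 at 2 mM TTK and CCNB2 (0.0651 and 0.0708). CCNB2, just under the threshold at an adjusted p of 0.048, was also lost under several other settings.

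UBE2S was the one gene that fell with glutamine in treated cells. It stood at 368, 393 and 385 RPM at 40 mM, against 424, 437 and 419 RPM at 2 mM, which do not overlap, with a log2 fold change of -0.16 (SE 0.036, adjusted p = 0.00146). Under quantile normalization this was -0.08 (adjusted p = 0.156). The scaling between libraries mattered most in this comparison: 22 genes of the set rose and 0 fell under quantile normalization, and 24 rose with equal library totals. Of all 12789 tested genes, 1245 rose and 1239 fell under quantile normalization, and 2017 rose and 941 fell with equal totals. In the deposited scaling 1102 rose and 1663 fell. Of all calls, 39.9% were rises in the deposited scaling, 50.1% under quantile normalization and 68.2% with equal totals.

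**Figure D4:**
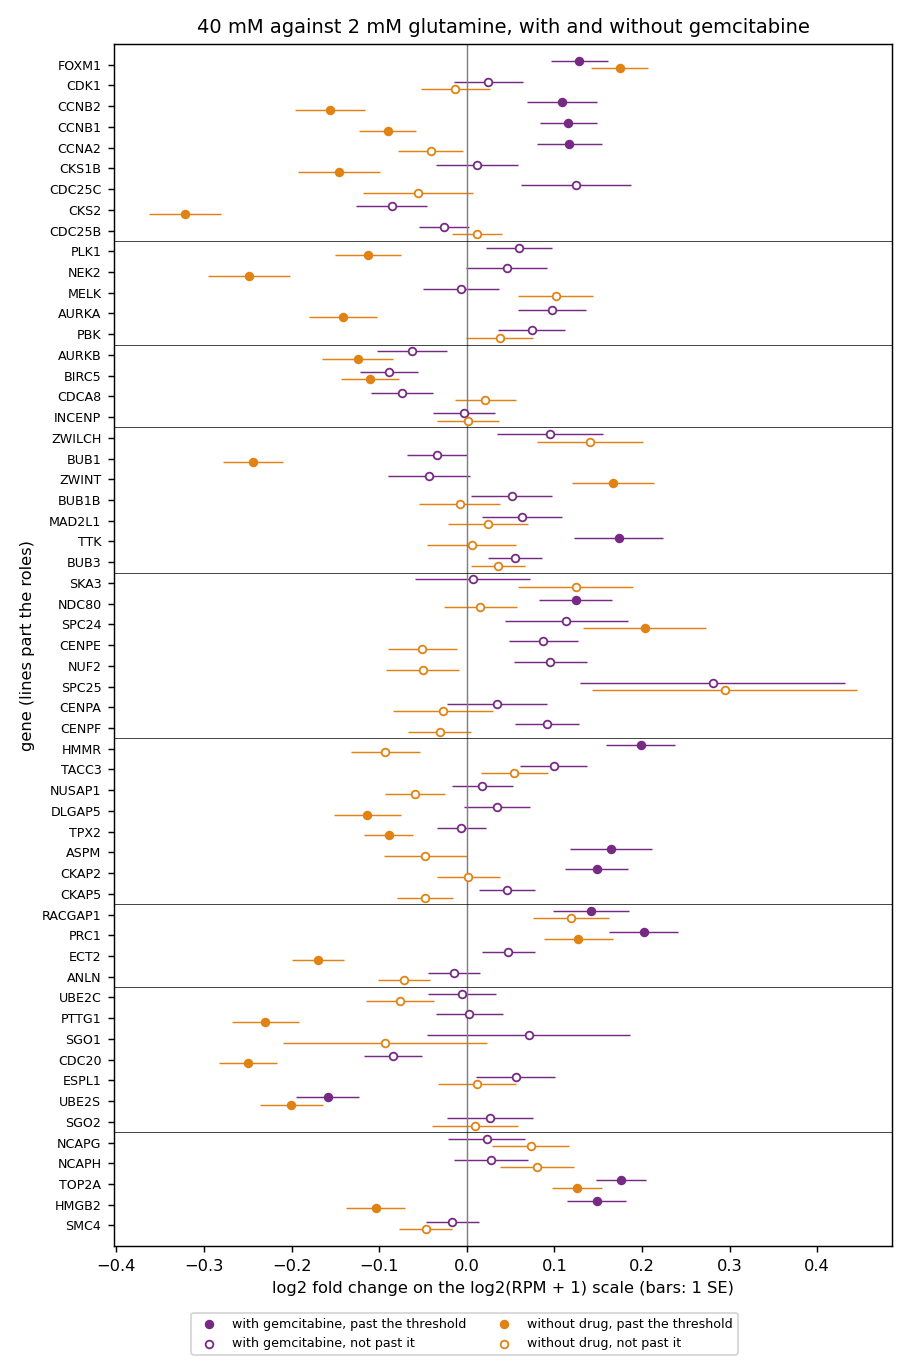
Points give the log2 fold change of 40 against 2 mM glutamine with gemcitabine (purple) and without it (orange) for each of the 57 genes, by role, with bars of 1 SE, and filled points passed the limma threshold of 0.05. Most filled orange points lie left of 0, down to −0.32 (CKS2), and 13 of 14 filled purple points lie right of it.

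Cells that received both 40 mM glutamine and gemcitabine were also set against cells at 2 mM without drug. In this comparison 53 of the 57 genes rose and 2 fell, where 18.7% of all tested genes rose and 21.2% fell, with a median log2 fold change of 0.30 over the set. Rises were 46.9% of all calls here, and 65.8% with equal library totals. The highest was FOXM1, at 287, 282 and 269 RPM against 175, 183 and 173 RPM, or 0.66 (SE 0.033, adjusted p = 1.95e-17) on the log2 scale. The lowest was CKS2, a small subunit of CDK1 complexes, which fell, at -0.18 (SE 0.041, adjusted p = 0.000447), and CDC25B fell, at -0.12 (adjusted p = 0.000695). The CDC25B call was lost under quantile normalization (adjusted p = 0.137) and with equal library totals (0.0741). NEK2 and CKAP5 did not pass the test, at 0.10 and 0.06. ANLN, BUB1, ECT2, SGO1 and UBE2S rose by 0.08, 0.10, 0.10, 0.33 and 0.12. Each lost its call without 1 or more single libraries: without untreated replicate 1 ANLN, BUB1 and UBE2S (adjusted p = 0.118, 0.0552 and 0.0714), without untreated replicate 2 BUB1 and SGO1 (0.0766 and 0.102), without untreated replicate 3 ANLN and SGO1 (0.111 and 0.0885). Without treated replicate 1 ANLN, BUB1 and ECT2 were not called (0.0719, 0.0596 and 0.0598), without treated replicate 2 BUB1, SGO1 and UBE2S (0.0521, 0.0815 and 0.0639), and without treated replicate 3 ANLN and SGO1 (0.0555 and 0.0949).

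Whether the drug response itself differed between glutamine levels was tested as an interaction, the response at 40 mM minus that at 2 mM. It passed for 10 of the 57 genes, all with the larger response at 40 mM, where 0.727% of all tested genes passed in that direction and 1.47% in the other. Of all interaction calls, 33.1% were thus larger at 40 mM in the deposited scaling, 54.7% under quantile normalization and 58.9% with equal totals, where 15 and 13 genes of the set passed, again none in the other direction. Over all 12789 tested genes, 116 passed with the larger response at 40 mM under quantile normalization and 139 with equal totals, against 93 in the deposited scaling. The 10 genes serve different steps: the cyclins CCNB1 and CCNB2 and the CDK subunit CKS2 at mitotic entry, the kinases NEK2 and AURKA at the centrosome, BUB1 at the checkpoint, HMMR on the spindle, PTTG1 (securin) at anaphase, ECT2 in cytokinesis and HMGB2 on chromatin. The estimate was larger at 40 mM for 45 of the 57 genes and smaller for 12, with a median difference of 0.07, against −0.0069 over all genes tested. All 4 drug and glutamine comparisons share libraries with this one, so their values for these genes are set side by side and are not separate evidence.

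HMMR, a spindle protein and hyaluronan receptor, stood at 131, 134 and 129 RPM with gemcitabine and 81.1, 83.04 and 82.1 RPM without it at 40 mM. At 2 mM HMMR stood at 108, 120.2 and 114 RPM with gemcitabine and 87.4, 87.8 and 87.6 RPM without it. Treated libraries were above untreated ones at both levels, those at 40 mM the highest of all 12. It rose by 0.67, the highest value of the set, at 40 mM and by 0.38 at 2 mM, and the difference was 0.29 (SE 0.056, adjusted p = 0.00249). CCNB2, a cyclin that activates CDK1, stood at 131, 118 and 126 RPM with gemcitabine and 96.1, 97.2 and 93.7 RPM without it at 40 mM. At 2 mM CCNB2 stood at 111, 119 and 118 RPM with gemcitabine and 108, 107 and 105 RPM without it. Untreated cells at 40 mM held the lowest values. The changes were 0.38 at 40 mM and 0.12 at 2 mM, a difference of 0.26 (SE 0.056, adjusted p = 0.00774). The 2 mM value was not called without untreated replicate 3 or treated replicate 2 or 3 (adjusted p = 0.0634, 0.108 and 0.0803).

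NEK2 stood at 73.7, 78.8 and 78.7 RPM with gemcitabine and 58.1, 59.7 and 62.8 RPM without it at 40 mM. At 2 mM NEK2 stood at 70.7, 74.9 and 78.4 RPM with gemcitabine and 70.1, 71.4 and 73.5 RPM without it. The groups overlapped at 2 mM, where the change was 0.06 (adjusted p = 0.359), and were apart at 40 mM, where it was 0.35, so that the difference came to 0.29 (SE 0.066, adjusted p = 0.0111), the highest of the set. HMGB2 stood at 268, 274 and 272 RPM with gemcitabine and 215, 224 and 209 RPM without it at 40 mM. At 2 mM HMGB2 stood at 234, 255 and 245 RPM with gemcitabine and 226, 235 and 235 RPM without it. Its treated libraries overlapped the untreated ones at 2 mM only, with 0.08 (adjusted p = 0.0789) there, 0.33 at 40 mM and a difference of 0.25 (SE 0.048, adjusted p = 0.00234). ECT2 stood at 344, 332 and 326 RPM with gemcitabine and 273, 272 and 285 RPM without it at 40 mM. At 2 mM ECT2 stood at 322, 321 and 325 RPM with gemcitabine and 312, 312 and 309 RPM without it. Untreated cells at 40 mM were the lowest group, with changes of 0.27 at 40 mM and 0.05 (adjusted p = 0.177) at 2 mM, a difference of 0.22 (SE 0.042, adjusted p = 0.00295).

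BUB1, the kinase that gathers checkpoint proteins at kinetochores, stood at 187, 186 and 181 RPM with gemcitabine and 139, 149 and 147 RPM without it at 40 mM. At 2 mM BUB1 stood at 188, 188 and 191 RPM with gemcitabine and 170.2, 168 and 178 RPM without it. Its treated groups lay close together and its untreated ones apart, with changes of 0.35 at 40 mM and 0.14 at 2 mM and a difference of 0.21 (SE 0.049, adjusted p = 0.0137). PTTG1, the inhibitor of separase, stood at 136, 139.7 and 147 RPM with gemcitabine and 100.2, 94.8 and 102 RPM without it at 40 mM. At 2 mM PTTG1 stood at 138, 140.2 and 143 RPM with gemcitabine and 118, 117 and 114 RPM without it. The treated groups overlapped each other and the untreated ones did not. Its changes were 0.50 and 0.27, with a difference of 0.23 (SE 0.054, adjusted p = 0.0139). CCNB1, the main cyclin of CDK1 in mitosis, stood at 348, 341 and 367 RPM with gemcitabine and 274, 278 and 277 RPM without it at 40 mM. At 2 mM CCNB1 stood at 312, 331 and 331 RPM with gemcitabine and 286, 302 and 296 RPM without it. Treated cells were above untreated ones at both levels, by 0.35 and 0.14, a difference of 0.21 (SE 0.046, adjusted p = 0.00996).

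AURKA stood at 159.8, 156 and 167 RPM with gemcitabine and 119, 127 and 134 RPM without it at 40 mM. At 2 mM AURKA stood at 146, 151 and 154 RPM with gemcitabine and 137, 143 and 139.7 RPM without it. Its 4 groups followed the order of CCNB1, with treated cells at 40 mM highest and untreated cells at 40 mM lowest, and the difference between the responses was 0.24 (SE 0.055, adjusted p = 0.0138). CKS2 stood at 92.8, 90.6 and 95.3 RPM with gemcitabine and 84.4, 81.7 and 86.8 RPM without it at 40 mM. At 2 mM CKS2 stood at 94.7, 102 and 99.7 RPM with gemcitabine and 105, 109 and 102 RPM without it. It was the one gene of the set whose estimates had opposite signs, with 0.14 (adjusted p = 0.00905) at 40 mM and -0.10 (adjusted p = 0.061) at 2 mM, where the treated libraries were all below the untreated ones by a narrow margin, and a difference of 0.24 (SE 0.058, adjusted p = 0.0213). The negative value at 2 mM passed the test under quantile normalization (adjusted p = 0.0365) and without untreated replicate 3 (0.0439).

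CCNB2, BUB1, HMMR, ECT2 and HMGB2 passed the interaction test in all 19 alternatives. The other 5 did not pass without treated replicate 1 at 2 mM, where the difference was 0.18 for CCNB1 (adjusted p = 0.0537), 0.22 for AURKA (0.0575), 0.26 for NEK2 (0.0552), 0.22 for PTTG1 (0.0537) and 0.21 for CKS2 (0.0847), and 5 of the 57 genes then passed in all. CKS2 was also lost without untreated replicate 2 at 2 mM (0.0557) and without treated replicate 3 at 40 mM (0.0532). At the other end of the set were ZWINT at -0.21 (adjusted p = 0.0886), SKA3 at -0.12 (adjusted p = 0.589), MELK at -0.11 (adjusted p = 0.404) and CDCA8 at -0.10 (adjusted p = 0.362), none of which passed.

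**Figure D5:**
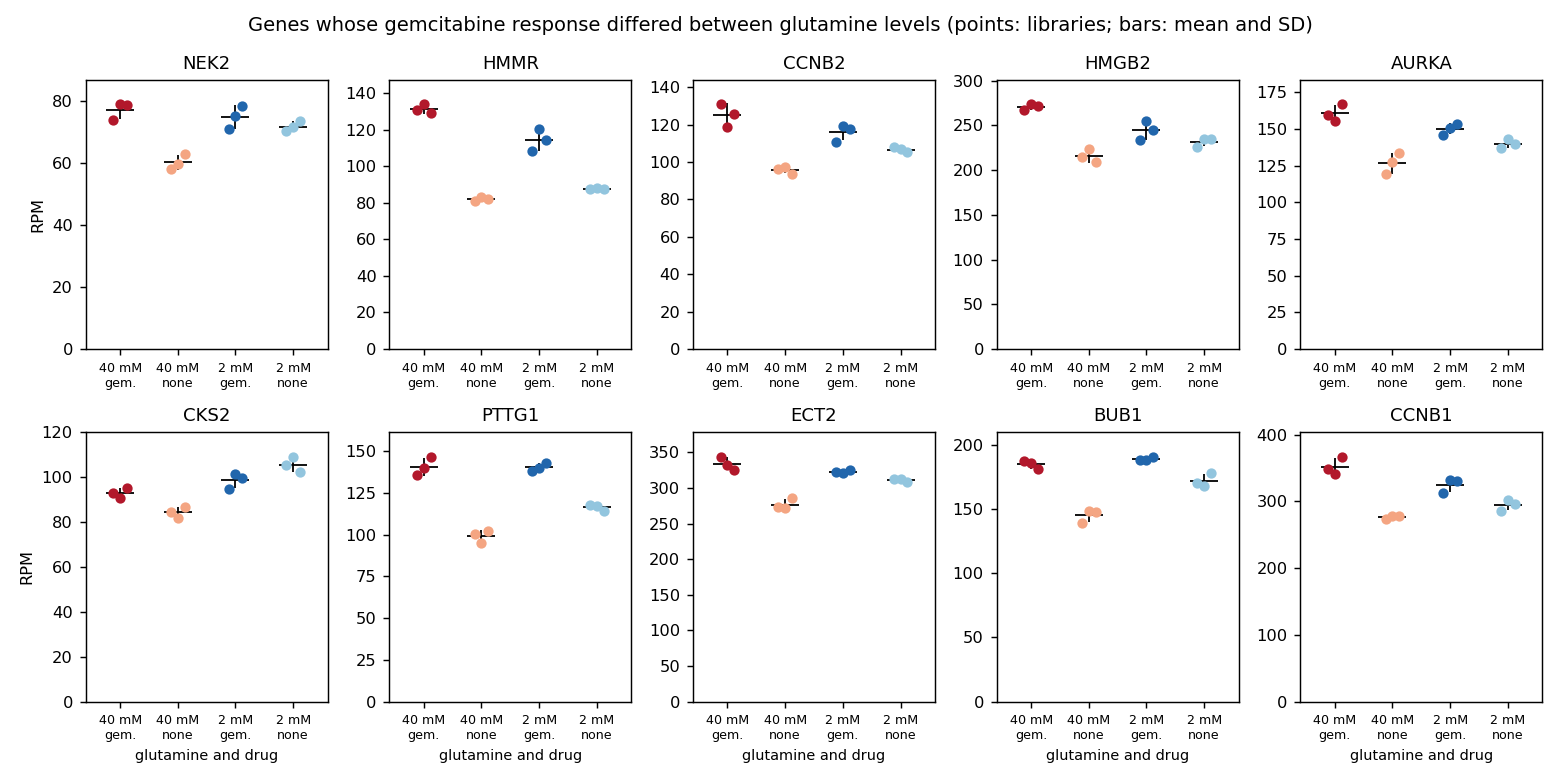
Each panel plots RPM (y axis from 0) of 1 of the 10 genes in the 4 groups, with a point per library and the mean and SD of 3 libraries as bars. Untreated cells at 40 mM are the lowest group in all 10 panels, and CKS2 is highest in untreated cells at 2 mM.

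Genes of the same pathways outside the set were followed in lists, to be read against the 14.1% of all tested genes that rose and the 16.2% that fell with the drug at 40 mM, and the 17.5% and 17.1% at 2 mM. No difference between lists was tested. Of 28 further kinetochore and centromere genes, gemcitabine raised 17 (60.7%) and lowered 1 at 40 mM, and 21 (75%) rose and 0 fell at 2 mM. HJURP, which loads CENPA, rose by 0.49 and 0.34, and KNTC1, of the complex that ZWINT helps to recruit, by 0.24 and 0.24. CENPH and CENPU, of the inner kinetochore, rose by 0.52 and 0.43 at 40 mM and by 0.30 and 0.52 at 2 mM. CENPX stood at 51.5, 47.6 and 52.4 RPM with gemcitabine and 65.1, 53.1 and 61.5 RPM without it at 40 mM, and fell there, at -0.24. Of the MIS12 complex, which links the inner to the outer kinetochore, PMF1 did not pass, at -0.20 and -0.13, and MIS12 rose at 2 mM by 0.32 and with glutamine alone by 0.33.

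Of 12 mitotic kinesins, 11 (91.7%) rose at each level. KIF11, the motor that pushes the poles apart, rose by 0.35 and 0.43, KIF2C, which takes microtubules apart at centromeres, by 0.48 and 0.34, and KIF15, a motor that works beside KIF11, by 0.41 and 0.21. KIFC1, a motor that moves the other way along microtubules, did not pass, at 0.14 and 0.27. KIF20A and KIF14, motors of cytokinesis, passed the interaction test at 0.23 (adjusted p = 0.0135) and 0.25 (adjusted p = 0.0337), KIF14 not when any 1 of 7 libraries was left out (adjusted p = 0.0536 to 0.12). KIF14 rose by 0.39 at 40 mM and 0.14 at 2 mM, the last not without untreated replicate 3 or treated replicate 2 or 3 (adjusted p = 0.0747, 0.0652 and 0.0771).

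Of 21 centrosome and spindle pole genes, 13 (61.9%) rose and 1 fell at 40 mM and 12 (57.1%) rose and 0 fell at 2 mM. CEP55, of the last step of cytokinesis, rose by 0.46 and 0.25, and STIL, of centriole duplication, by 0.38 and 0.52. CIT, a cytokinesis kinase, rose by 0.37 and 0.15, the last not without untreated replicate 3 or treated replicate 2 (adjusted p = 0.07 and 0.0514). CIT and CEP55 passed the interaction test at 0.22 (adjusted p = 0.0495) and 0.21 (adjusted p = 0.0259), but each lost the call without any 1 of several libraries, both for instance without treated replicate 1 at 2 mM (adjusted p = 0.106 and 0.0888). BORA, which helps AURKA to activate PLK1, rose by 0.41 at 40 mM and was at 0.21 at 2 mM without passing, and CENPJ, a centriole protein, was at 0.19 without passing and rose by 0.40. NUMA1, which anchors spindle poles, did not pass, at -0.06 and 0.02. The 1 fall at 40 mM, of HAUS5, a spindle protein, was -0.14, and was lost with equal library totals and without untreated replicate 3 or treated replicate 2 (adjusted p = 0.124, 0.14 and 0.104).

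A further list held 16 genes: core subunits of the anaphase-promoting complex, its co-activator FZR1 and its inhibitor FBXO5. Of these, 1 rose (6.25%) and 2 fell (12.5%) at 40 mM, and 3 rose (18.8%) and 2 fell (12.5%) at 2 mM. These shares were near or below those of all tested genes. With equal library totals 4 rose and 1 fell at 40 mM, without treated replicate 2 there 2 rose and 1 fell, and at 2 mM 1 fell when replicate 1 or 3 of either group was left out. FBXO5 (EMI1), the inhibitor, rose by 0.42 and 0.45 and was the 1 rise of the list at 40 mM, so no core subunit or co-activator rose there. FZR1 (CDH1), the activator of the complex in late mitosis and G1, fell, at -0.30 (SE 0.046, adjusted p = 3.81e-06) at 40 mM and -0.18 (SE 0.046, adjusted p = 0.00273) at 2 mM. The scaffold subunits ANAPC5 and ANAPC1 were at 0.05 and 0.05 at 40 mM without passing and rose by 0.17 and 0.12 at 2 mM, ANAPC1 not without untreated replicate 3 or treated replicate 1 (adjusted p = 0.0614 and 0.0541). The small subunit ANAPC16 fell, at -0.15 (adjusted p = 0.0141) and -0.12 (adjusted p = 0.0474). Its call at 40 mM was lost without untreated replicate 1 or treated replicate 2 (0.126 and 0.0843) and that at 2 mM without replicate 1 or 3 of either group (0.137 and 0.137 for treated, 0.163 and 0.114 for untreated libraries). ANAPC11, the catalytic RING subunit, did not pass, at -0.02 and 0.05.

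Of 17 further condensin and cohesin genes, 9 (52.9%) rose and 0 fell at 40 mM and 9 rose and 2 fell at 2 mM, where 0 fell without untreated replicate 1 or 2 or treated replicate 2, and 1 without treated replicate 1 or 3. NCAPD2, a condensin subunit, rose by 0.35 and 0.20, and STAG2, a cohesin subunit, was at -0.07 and -0.05 without passing. ESCO2, which acetylates cohesin in S phase, rose by 0.55 and 0.65, while ESCO1, of the same family, was at -0.07 without passing and fell at 2 mM, at -0.19 (adjusted p = 0.0447). That call was lost without any 1 of the 3 untreated libraries or treated replicate 1 or 2 at 2 mM (0.0733, 0.142 and 0.0516 for untreated, 0.0583 and 0.301 for treated libraries).

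Of 17 regulators of the DREAM, MuvB, NF-Y and E2F families, 6 (35.3%) rose and 3 (17.6%) fell at 40 mM and 7 (41.2%) rose and 2 (11.8%) fell at 2 mM, where 1 fell without treated replicate 1 or 3. MYBL2, which turns MuvB into an activator, rose by 0.36 (SE 0.031, adjusted p = 4.72e-11) at 40 mM and 0.49 (SE 0.031, adjusted p = 1.6e-14) at 2 mM, and RBL2 (p130), the pocket protein of DREAM, fell, at -0.17 (SE 0.039, adjusted p = 0.000853) and -0.27 (SE 0.039, adjusted p = 1.11e-06). The repressors E2F7 and E2F8 rose by 0.74 and 0.34 at 40 mM and by 0.77 and 0.56 at 2 mM, and TFDP1, the partner of E2F proteins, by 0.13 and 0.25. E2F5 and the NF-Y subunit NFYB did not pass, at -0.33 and 0.15 at 40 mM and 0.08 and -0.04 at 2 mM.

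Of 13 genes that restrain mitotic entry, 8 (61.5%) rose and 4 (30.8%) fell at 40 mM, with 5 rises left without treated replicate 3, and 6 (46.2%) rose and 4 (30.8%) fell at 2 mM. CDKN1A (p21), a CDK inhibitor, stood at 8.15, 9.98 and 7.82 RPM with gemcitabine and 4.1, 2.14 and 3.96 RPM without it at 40 mM. At 2 mM CDKN1A stood at 9.29, 9.01 and 11.1 RPM with gemcitabine and 5.74, 4.3 and 5.11 RPM without it. Treated libraries were above untreated ones at each level, by 1.16 (SE 0.15, adjusted p = 9.61e-08) and 0.84 (SE 0.15, adjusted p = 2.55e-05) on the log2 scale. GADD45A, a stress gene whose product inhibits CDK1, rose by 0.57 and 0.52. BTG2, an antiproliferative gene, fell, at -0.56 and -0.80, and so did PLK2, a kinase of the stress response, at -0.27 and -0.15. SFN (14-3-3 sigma), which keeps CDK1 out of the nucleus, rose by 0.52 at 40 mM, was at 0.01 at 2 mM without passing, and fell with glutamine alone, at -1.06 (SE 0.1, adjusted p = 2.76e-09). The interaction did not pass for SFN, nor for any other gene of this list with the larger response at 40 mM. Under some alternatives, such as quantile normalization, 1 gene of the list passed in that direction. PKMYT1, the kinase that inhibits CDK1, rose more at 2 mM, at 0.58, than at 40 mM, at 0.18, and the interaction was -0.40 (SE 0.088, adjusted p = 0.00937). Its call at 40 mM was lost without replicate 2 or 3 of either group (adjusted p = 0.119 and 0.185 for treated, 0.145 and 0.0592 for untreated libraries).

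The S phase genes followed for comparison gave these values beside those of the mitosis genes. With the drug, 22 of 24 rose and 0 fell at 40 mM and 24 rose and 0 fell at 2 mM, with medians of 0.33 and 0.59 on the log2 scale. The helicase genes MCM7 and MCM4 rose by 0.33 and 0.35 at 40 mM and by 0.56 and 0.62 at 2 mM, CDC45, which joins the helicase, by 0.57 and 0.73, and CDT1, which loads it, by 0.39 and 0.46. CCNE1, the cyclin of S phase entry, was at 0.13 at 40 mM without passing and rose by 0.30 at 2 mM. The interaction passed for 13 of the 24, all with the smaller response at 40 mM, where 1.47% of all tested genes passed in that direction, and the median difference was −0.24, against 0.07 for the 57 mitosis genes. CDC6, which loads the helicase too, stood at 113, 109.6 and 102 RPM with gemcitabine and 74.0, 80.4 and 84.1 RPM without it at 40 mM. At 2 mM CDC6 stood at 101, 107 and 103 RPM with gemcitabine and 57.0, 56.1 and 52.6 RPM without it. Its treated groups were close together while its untreated level at 2 mM was the lowest, and the interaction was -0.46 (SE 0.067, adjusted p = 0.000119). With 40 mM glutamine alone 17 of the 24 rose (70.8%) and 0 fell, at a median of 0.18, where 8.41% of all tested genes rose and 9.12% fell. In treated cells 0 rose and 9 fell with glutamine (37.5%), at a median of −0.08, where 8.62% of all tested genes rose and 13% fell, and 3 of the 24 fell under quantile normalization and 2 with equal library totals.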

How the data were processed

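RNA of MIA PaCa-2 cells was sequenced in 12 libraries, 3 for each combination of L-glutamine (40 or 2 mM) and gemcitabine (0.5 µM or none). The deposited table holds log2 values per gene symbol. Aligner, counting, strand setting and genome build were not given in the sources used here. From the values themselves, each equals log2(scaled RPM + 1), and 100% came out as whole reads within 0.05 of a read, with a library scaling factor. Of 15090 symbols, 12789 with at least 1 RPM in at least 3 of the 12 libraries were tested.

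Group differences came from the log2 values as deposited, with limma 3.58.1 in R 4.3.3, fitted with 4 group means over all 12 libraries, a mean-variance trend and empirical Bayes moderation. Two-sided p-values were adjusted over 12789 genes by the Benjamini-Hochberg method, and 0.05 was the threshold. Count models were left out because the deposited unit is log2, so voom weights on the recovered reads were used as an alternative. The other alternatives were no filter, a pseudocount of 0.25, quantile normalization, equal library totals, robust moderation, a replicate block, the compared groups alone, and each library left out in turn. The script was tested on simulated data. Libraries of a group differed by more than counting noise, with chi-square over degrees of freedom of 2.42 to 5.87, so none was merged. Promoters came from a RefSeq table on GRCh38.p14 and were searched with Python 3.11.15.

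Members picked by rule were the 3 of highest level per role, the highest and lowest fold change per comparison, and the members with an interaction call. The rule also picked members called against the majority direction of a comparison and those not called with the drug. Some of these are given by fold change only, and CDK1 and AURKB are given library by library outside this rule. Genes outside the set were named by rule: of each list the 2 highest-level genes and the highest and lowest fold changes with drug and with glutamine alone. KIF20A, KIF14, CIT, CEP55 and PKMYT1 were named because their interaction passed. The members and lists were chosen with earlier results of these data known.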

Additional observations from a re-analysis of the deposited data

Results flagged for a closer look

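For 10 genes the gemcitabine response at 40 mM glutamine differed from that at 2 mM by the limma interaction test over all tested genes. The response at 40 mM minus that at 2 mM, on the log2 scale, was 0.29 for NEK2, 0.29 for HMMR, 0.26 for CCNB2, 0.25 for HMGB2, 0.24 for AURKA, 0.24 for CKS2, 0.23 for PTTG1, 0.22 for ECT2, 0.21 for BUB1 and 0.21 for CCNB1. AURKA, CCNB1, CKS2, NEK2 and PTTG1 no longer passed when treated replicate 1 at 2 mM was left out.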

How the results depend on the processing

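Single genes were followed under the alternatives for every call of the main fit among the members and the named outside genes. Results not called there were followed for members only. These were the drug comparisons at each glutamine level, the highest and lowest value of each comparison and the lowest interaction estimates. New passes and reversals among all other results not called are therefore not counted here. Of 8648 values so followed, 8323 kept their direction and their side of the threshold, 309 no longer passed, 13 newly passed and 3 reversed. The reversals concerned estimates near 0 with the drug at 2 mM: ASPM at -0.0069 without untreated replicate 3 (up to 0.13 without other single libraries), and CKAP5 at -0.019 without the same library (up to 0.035 without others) and -0.0098 under quantile normalization. Counts over the 57 genes moved as follows. Under quantile normalization 2 fell with the drug at 2 mM and 0 at 40 mM, 22 rose and 0 fell with glutamine in treated cells, and 1 fell between both treatments and neither. With equal library totals 10 fell with glutamine alone, 24 rose with glutamine in treated cells, and 1 fell between both and neither. With the compared groups alone, 3 rose and 10 fell with glutamine alone and 3 fell with glutamine in treated cells, where voom weights gave 2 and robust moderation 3. The causes were not tested. Leaving out 1 library at a time gave 42 to 46 rises and 1 to 2 falls with the drug at 2 mM, and 53 to 56 rises and 1 fall at 40 mM. It gave 3 to 7 rises and 8 to 17 falls with glutamine alone, and 8 to 15 rises and 1 to 3 falls with glutamine in treated cells. Between both and neither it gave 50 to 53 rises and 2 falls, and for the interaction 5 to 11 genes larger and 0 smaller at 40 mM. Libraries with the same replicate number did not deviate together (correlations of -0.077 to 0.048 over 18 pairs, and -0.08 to 0.092 over the 36 pairs of other numbers), so the numbers share no pairing that the data show. A replicate block gave 45 rises with the drug at 2 mM, 55 at 40 mM and 13 with glutamine in treated cells, and 11 interaction calls. Among calls of single mitosis genes it ended that of CCNB2 with glutamine in treated cells, at 0.11 (limma adjusted p = 0.0532). The fit to the compared groups alone gives no interaction. Depth limits SPC25 most, with 60 reads in its lowest library.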
